A study of Mus musculus with 4 samples.

Results

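The transcription factors that set lymphocyte lineage and state were followed by 9 genes, Tbx21, Eomes, Gata3, Foxp3, Zbtb16, Tcf7, Lef1, Tox and Ikzf2, taken by symbol from the 31053 genes in the count matrices of liver mononuclear cells. Their levels were read in CD8, CD4, innate-like and gamma delta T cells and in NK cells, which were gated on marker genes and held 2397 of the 9300 cells deposited. The cells came from livers of C57BL/6 mice aged 8 to 10 weeks. The Naïve library came from naïve mice. The other libraries came from mice given concanavalin A (ConA), a plant lectin that activates T cells and injures the liver. For the vehicle and TCDD groups the dose was intravenous and the mice were killed 24 hours later. In the ConA+Veh group ConA was followed by corn oil, the vehicle. In the ConA+TCDD group ConA was followed by the chlorinated dioxin TCDD, a persistent ligand of the aryl hydrocarbon receptor (AhR). The ConA+FICZ group is known from its label alone and was given ConA and FICZ, a formylated indolocarbazole that forms from tryptophan, binds AhR and is metabolised quickly. Its ConA route and time were taken to be those of the other ConA groups. AhR is itself a transcription factor, and the comparison of the ConA libraries asks how its ligands went with the state of liver lymphocytes in this model of autoimmune hepatitis.

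Each group was 1 library, so no comparison between groups could be tested, and how many mice went into a library is not given in the sources used here. Levels are in CPM, the unique molecular identifiers (UMIs) of a gene per 1000000 UMIs summed over the cells of a gate. Intervals are exact 95% intervals that cover counting error only, and since several UMIs can come from 1 cell they are too narrow for a gene carried by a few cells. A gene was called higher or lower where its CPM differed at least 2-fold between libraries and it had at least 20 UMIs over both.

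These factors bind DNA and hold cells to a lineage or a state. TCF-1 (Tcf7) and LEF1 (Lef1) are partners of beta-catenin that keep T cells naive or memory-like. T-bet (Tbx21) drives type 1 responses, and with Eomesodermin (Eomes) it sets cytotoxic CD8 T cell and NK cell fate. GATA3 (Gata3) drives type 2 responses and is needed for CD4 T cell development, FOXP3 (Foxp3) defines regulatory T cells, and Helios (Ikzf2) marks many of these and also some activated or innate-like T cells. PLZF (Zbtb16) gives natural killer T (NKT) cells their innate character, and TOX (Tox) acts in CD4 T cell development and in exhausted CD8 T cells. The liver is rich in NKT cells, NK cells and type 1 innate lymphoid cells (ILC1).

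The 9 genes lie apart on the mouse genome (build GRCm38, annotation GENCODE M21). Tbx21 is at chr11:97098071-97115331, Eomes at chr9:118478212-118486132, Gata3 at chr2:9857078-9890034 and Foxp3 at chrX:7573644-7595245. Zbtb16 is at chr9:48654297-48836222, Tcf7 at chr11:52252371-52283014, Lef1 at chr3:131110471-131224356, Tox at chr4:6686353-6991557 and Ikzf2 at chr1:69531214-69687245. RefSeq promoter windows (GRCm38.p6) were held for 6 of the 9 genes, with 11 start sites, and the 250 bases before each start were searched for 2 short motifs. One was the AhR core GCGTG, or CACGC on the other strand, since AhR ligands were given, and it is present in 28.2% of 32851 promoter windows. The other was CTTTGA, or TCAAAG on the other strand, a core read by TCF-1 and LEF1 themselves, present in 13.8% of them.

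The AhR core was found before 2 of the 11 starts, both of Foxp3, beside 28.2% of all windows. They are shown because Foxp3 in CD4 T cells differed at least 2-fold between the ligand libraries, from 19 UMIs with FICZ and 7 with TCDD. Without cycling cells that difference reversed. The core is in capitals, in its other-strand form, within the plus-strand stretches chrX:7579609-7579637 and chrX:7580418-7580446. It lies 55 and 53 bases before its start, and annotated exons overlap the window:
Foxp3 first start: gtctgcggcttcCACGCcgtggtttttct
Foxp3 second start: ttctgcttgtgtCACGCaagataacaccc
The TCF core was found before 1 start, the most downstream of those held for Lef1, where it occurs at 180 and 120 bases before the start, in capitals in the window chr3:131156044-131156293 on the plus strand. The window of Tbx21, a gene that differed 2-fold between the ligand libraries in CD8 T cells, is given beside it (chr11:97115332-97115581, minus strand) and holds neither motif:
Lef1 most downstream start: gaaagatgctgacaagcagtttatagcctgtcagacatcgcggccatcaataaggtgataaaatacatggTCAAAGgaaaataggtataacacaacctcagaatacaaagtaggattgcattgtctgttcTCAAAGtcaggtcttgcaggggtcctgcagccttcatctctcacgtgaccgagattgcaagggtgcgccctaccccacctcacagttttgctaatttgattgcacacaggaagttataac
Tbx21: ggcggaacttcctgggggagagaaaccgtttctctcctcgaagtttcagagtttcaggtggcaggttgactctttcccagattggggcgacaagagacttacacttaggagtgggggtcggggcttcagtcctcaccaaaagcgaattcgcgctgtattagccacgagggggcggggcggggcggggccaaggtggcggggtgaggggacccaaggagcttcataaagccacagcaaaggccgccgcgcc
These matches describe the letters of the windows and were not tied to binding.

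The libraries held 2086 cells from Naïve mice and, after ConA, 2779 with vehicle, 1880 with TCDD and 2555 with FICZ, with median depths of 2161 to 3984 UMIs. Between libraries 90 cells shared a barcode with a cell of another library. Without them the 109 ratios of members between libraries with at least 20 UMIs stayed within their counting error. Those at least 2-fold apart also kept their direction. The CD8 gate held 155, 377, 259 and 234 cells, where the first value is Naïve and the vehicle, TCDD and FICZ libraries follow in that order, here and throughout. The CD4 gate held 63, 118, 85 and 79 cells, the innate-like gate 73, 57, 34 and 40, the gamma delta gate 20, 31, 17 and 26, and the NK gate 133, 236, 178 and 182. The markers that the gates did not use went with their names for CD8, CD4 and NK cells. Prf1 (perforin), a pore-forming protein of killer cells, was at 744 CPM in NK and 27.0 CPM in CD8 cells of the Naïve library, and Zbtb7b, the factor of the CD4 lineage, had a UMI in 12.7% of CD4 and 1.29% of CD8 cells of that library.

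The innate-like gate took T cells with a UMI of Klrb1c (NK1.1) or of the invariant receptor segments, and its makeup differed between libraries. Only 7, 2, 1 and 2 of its cells had a receptor segment. Cxcr6, the chemokine receptor of liver NKT cells, was at 961, 92.0, 96.4 and 110.4 CPM in it, and a UMI of Trbc2, a T cell receptor chain, was seen in 78.1%, 49.1%, 44.1% and 72.5% of its cells. The share of its cells with Ncr1 was 6.85%, 21.1%, 8.82% and 12.5%. In the gamma delta gate Trbc2 was seen in 65.0%, 45.2%, 29.4% and 34.6% of cells, so neither gate is a pure population. These 2 gates also held the fewest cells, and their values carry the widest intervals.

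Depth, cell cycle and mitochondrial share differed with ConA in the very cells compared. The median depth of CD8 cells was 3396, 9926, 9242 and 12606 UMIs, and 2.58%, 71.9%, 54.1% and 55.1% of them had at least 2 UMIs of the cycling genes Mki67, Top2a, Birc5 and Cdk1. NK cells were shallower, at 1558, 2617, 2562 and 2236 UMIs. Depth differed outside the 5 gates too, as B cells were at 2135, 4238, 3782 and 3752 UMIs. A gene at the same number of UMIs per cell thus had a lower CPM in the ConA libraries, so the ratio of UMIs per cell is given beside CPM where the direction turns between Naïve and ConA+Veh. Cells with more than 10% mitochondrial UMIs were 4.5%, 24.4%, 16.2% and 9.8% of CD8 cells. Of CD4 cells they were 4.8%, 25.4%, 16.5% and 7.6%. The part of depth, cycling and mitochondrial share in the differences was not tested beyond the values given.

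**Figure D1:**
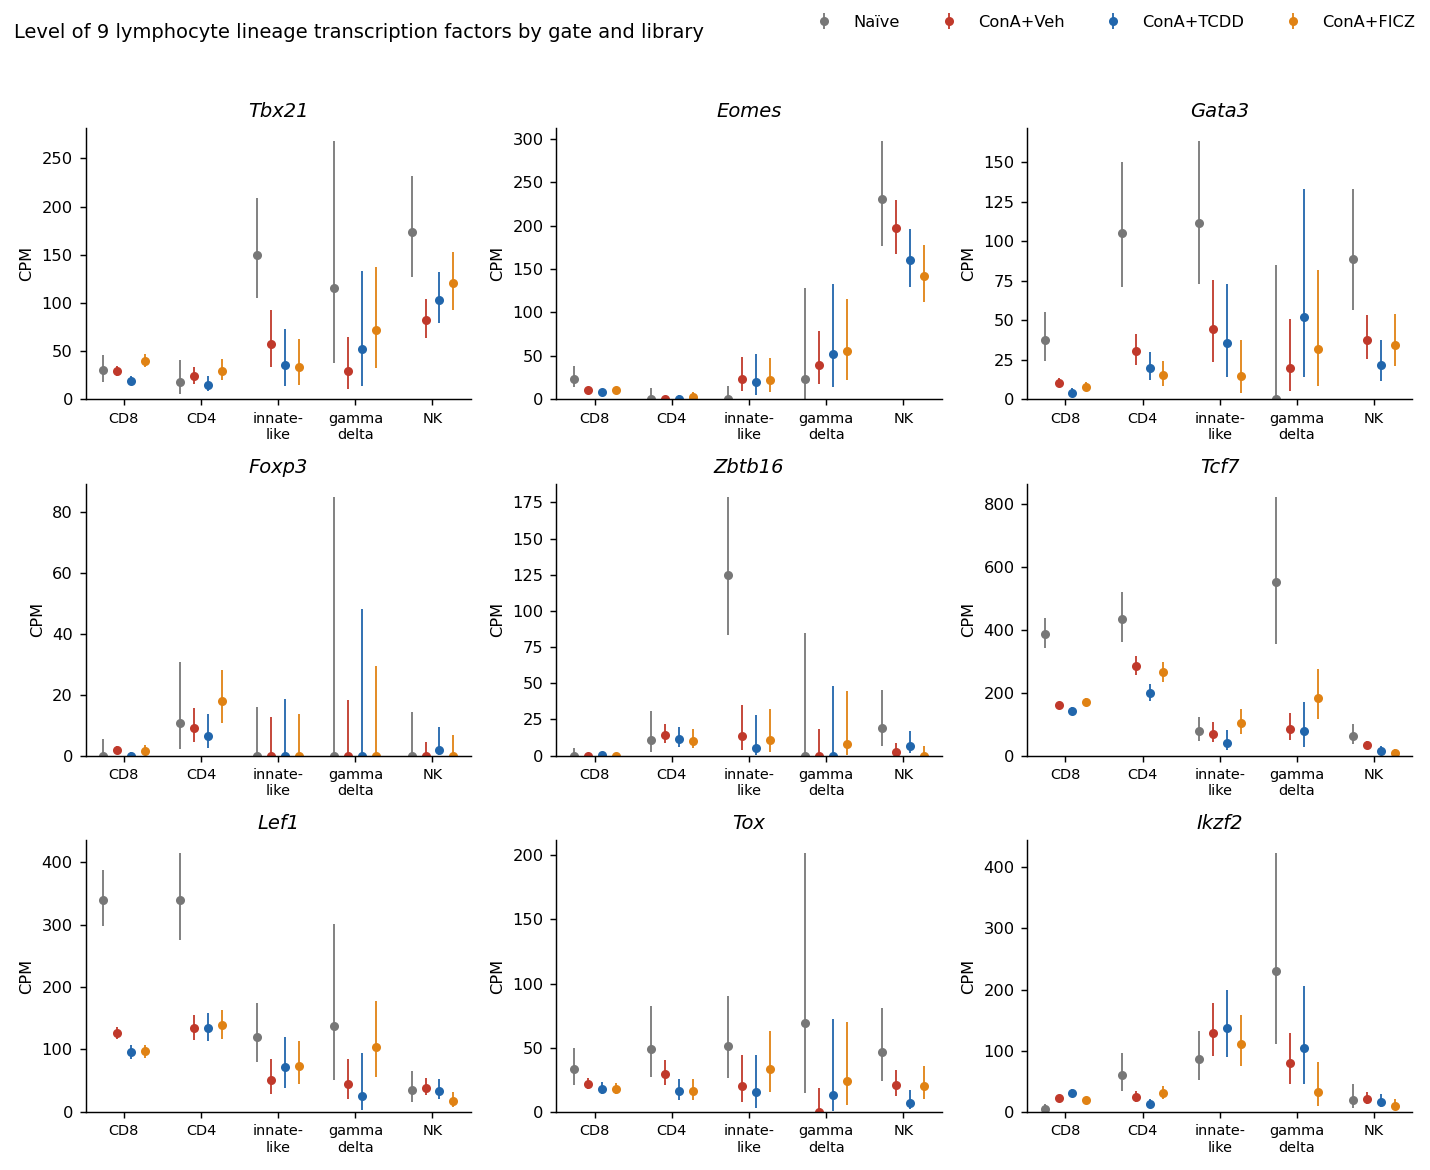
Level in CPM (y axis, linear) of each of the 9 genes in the 5 gates (x axis) of the 4 libraries (colours), with bars for the exact 95% Poisson interval of the UMI count. Tcf7 and Lef1 are highest in T cell gates, Eomes in NK cells, and Zbtb16 stands out at 124 CPM in innate-like cells of the Naïve library.

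Tcf7 and Lef1 were genes of the T cell gates more than of NK cells. Tcf7 was at 387, 159.5, 140.4 and 169 CPM in CD8 cells and at 435, 285, 198 and 264 CPM in CD4 cells. In NK cells it was at 61.7, 32.6, 15.2 and 9.12 CPM, from 16, 27, 9 and 5 UMIs. In the Naïve library the order was gamma delta (552 CPM, from 24 UMIs in 20 cells), CD4, CD8, innate-like (77.3 CPM) and NK, and only the step from CD8 to innate-like cells lay outside counting error. In the ConA+Veh library CD4 cells stood above CD8 cells, with a log2 ratio of CD8 over CD4 of -0.84 (-1.01 to -0.66), and CD8 above gamma delta cells.

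Lef1 was at 340.1, 126, 95.1 and 96.7 CPM in CD8 cells and at 340.0, 134, 134 and 139 CPM in CD4 cells. Both gates were alike in the Naïve library, where CD8 over CD4 gave a log2 ratio of 0.00 (-0.35 to 0.36), and in the ConA+Veh library, at -0.08 (-0.32 to 0.17). In innate-like cells Lef1 was at 120.2, 51.1, 71.0 and 73.6 CPM. NK cells had 34.7, 38.6, 33.8 and 16.4 CPM. Gamma delta cells had 138, 44.8, 26.0 and 104 CPM from 6, 9, 2 and 13 UMIs. CD8 and CD4 cells stood above NK cells beyond counting error in each library. Innate-like and gamma delta cells did so in the Naïve and ConA+FICZ libraries, while in the ConA+Veh library they were within it, at 0.40 (-0.59 to 1.33) and 0.21 (-1.04 to 1.31) over NK cells, and in the ConA+TCDD library at 1.07 (-0.02 to 2.13) and -0.38 (-3.52 to 1.67).

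Between Naïve and ConA+Veh the CPM of both factors was lower in CD8 cells, by -1.28 (-1.48 to -1.07) for Tcf7 and -1.43 (-1.65 to -1.20) for Lef1 on the log2 scale. The mean number of UMIs per CD8 cell went the other way, from 1.66 to 2.04 for Tcf7 and from 1.46 to 1.62 for Lef1, which are log2 ratios of 0.30 and 0.14. After each cell was thinned to 1000 UMIs, 37.9% (30.2 to 46.1), 14.8% (11.3 to 18.8), 15.0% (10.8 to 19.9) and 15.5% (11.1 to 20.7) of CD8 cells kept a Tcf7 UMI. Background was low, since at most 1.49% of thinned B cells had one. The UMIs of Tcf7 and Lef1 recovered per CD8 cell were thus similar in both libraries, within different totals per cell. At matched depth the share of CD8 cells with Tcf7 was lower with ConA. UMIs per cell carry the depth of a library as well as the content of its cells, and these cannot be told apart here. In CD4 cells Lef1 was lower by -1.35 (-1.71 to -0.98) in CPM and at -0.01 per cell, and Tcf7 was at -0.61 (-0.91 to -0.31) in CPM and 0.73 per cell.

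In gamma delta cells Tcf7 was at least 2-fold lower by both measures, at -2.71 (-3.69 to -1.75) in CPM and -1.13 per cell. The 20 Naïve gamma delta cells had 24 Tcf7 UMIs and the 31 ConA+Veh cells had 17. The share of cells with Trbc2 in this gate differed between these libraries, as given above, and 0% and 38.7% of its cells were cycling. The part of the gate's makeup in the Tcf7 difference was not tested. Lef1 in innate-like cells was lower in CPM, at -1.23 (-2.24 to -0.28), and at -0.54 per cell, which lay within counting error. Tcf7 in NK cells was at -0.92 (-1.86 to 0.07) in CPM and -0.07 per cell.

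Cells with a UMI of both genes were counted. Of the Naïve CD8 cells, 108 had a Tcf7 UMI, 106 a Lef1 UMI and 82 both, and in the ConA+Veh library these were 221, 251 and 170 cells. In the ConA+TCDD library they were 148, 144 and 96 cells and in the ConA+FICZ library 168, 133 and 113. A deeper cell more often shows a UMI of any gene, so these counts are given as values only.

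The T-box genes divided the gates differently. Tbx21 was highest in NK cells, at 173, 82.1, 103 and 120.4 CPM, and lower in CD8 cells, at 30.0, 29.2, 19.1 and 39.6 CPM. CD4 cells had 17.5, 23.7, 14.9 and 29.2 CPM, which did not differ from CD8 cells beyond counting error in any library. In innate-like cells Tbx21 was at 150.2 CPM in the Naïve library, within counting error of NK cells, and at 57.9, 35.5 and 33.1 CPM in the ConA libraries, from 17, 7 and 9 UMIs. Gamma delta cells had 115, 29.8, 52.01 and 72.1 CPM from 4 to 9 UMIs.

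Eomes was an NK cell gene here, at 231, 197, 160.4 and 142 CPM in NK cells and 24.0, 10.98, 8.51 and 10.3 CPM in CD8 cells. NK cells stood above every T cell gate in each library beyond counting error, and CD8 over NK gave a log2 ratio of -4.16 (-4.64 to -3.71) in the ConA+Veh library. CD4 cells had 0, 1, 1 and 3 Eomes UMIs. Innate-like cells had 0 in the Naïve library and 7, 4 and 6 in the ConA libraries, and gamma delta cells had 23.0, 39.8, 52.01 and 56.0 CPM from 1, 8, 4 and 7 UMIs. In those libraries Ncr1 was also seen in a larger share of innate-like cells, as given above, though only slightly so with TCDD. The Ncr1 shares were not thinned, and innate-like cells were deeper in the ConA libraries.

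With ConA, Tbx21 in NK cells was lower by -1.08 (-1.64 to -0.50) in CPM and was at -0.23 per cell, within counting error. Eomes was at -0.23 (-0.67 to 0.22) in CPM and 0.61 per cell. In CD8 cells Tbx21 CPM was alike in the 2 libraries, at -0.04 (-0.72 to 0.72), while the UMIs per cell were higher by 1.54. The ratio was -1.27 without cycling cells and 0.74 relative to the summed UMIs of 28 other lineage regulators. In the same gate Eomes was lower by -1.13 (-1.96 to -0.22) in CPM and at 0.45 per cell. The share of thinned CD8 cells with Tbx21 was 2.61% (0.72 to 6.56), 1.61% (0.59 to 3.48), 3.15% (1.37 to 6.11) and 3.86% (1.78 to 7.21), and that of thinned B cells reached 1.95%, and the intervals of both overlapped, so these shares cannot be set apart from background. Within the ConA+Veh CD8 gate cycling cells had 32.3 CPM of Tbx21 and other cells 13.0 CPM, and in the ConA+FICZ library these were 38.2 and 43.9 CPM.

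NK cells and ILC1 can be told apart by Eomes, and the NK gate was split by other genes, 4 of conventional NK cells (Itga2, Itgam, S1pr5, Klrg1) and 4 of ILC1 (Itga1, Cxcr6, Il7r, Cd200r1). Cells with only the former numbered 67, 90, 57 and 60 and cells with only the latter 23, 16, 16 and 5. Eomes was at 305, 226, 206 and 156 CPM in the conventional cells. The ILC1-type cells had 0, 6, 0 and 2 Eomes UMIs. In the Naïve and ConA+TCDD libraries the intervals of both kinds did not overlap. In the ConA+Veh library they did, with 93.5 CPM (34.3 to 203.5) in the ILC1-type and 226 CPM (181 to 280) in the conventional cells, and in the ConA+FICZ library 5 cells were too few to place them. Tbx21 was in both kinds, at 194, 65.8, 95.3 and 131 CPM in conventional and 72.6, 125, 159 and 187 CPM in ILC1-type cells, with overlapping intervals in each library. A UMI of both Tbx21 and Eomes was seen in 15, 23, 24 and 14 NK cells.

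**Figure D2:**
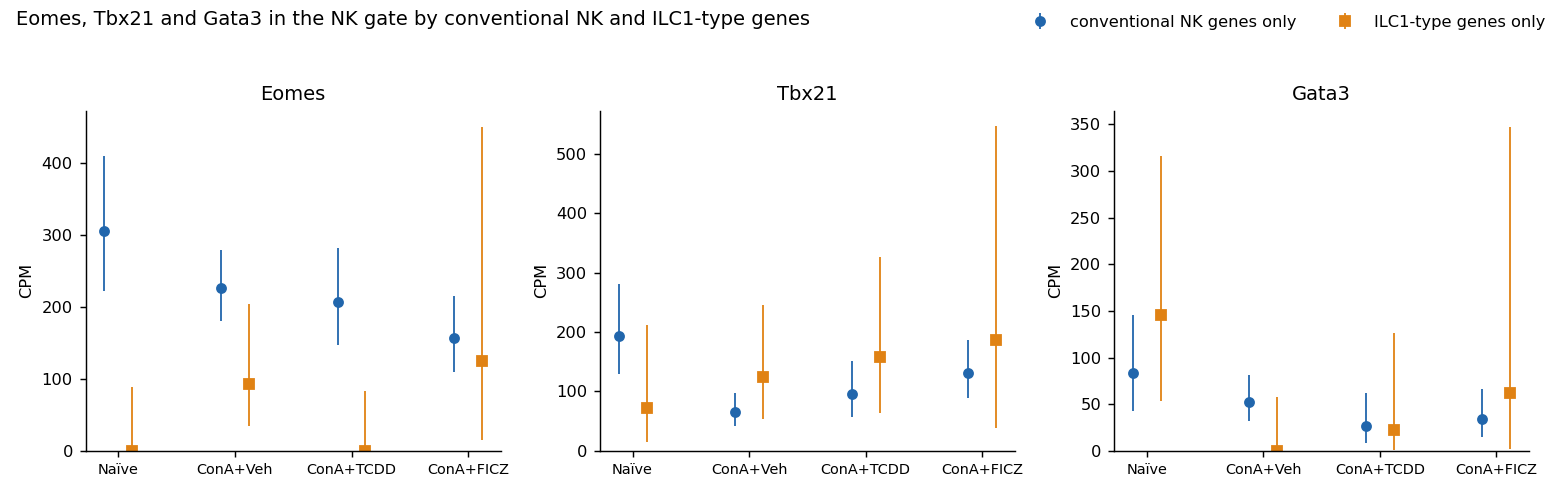
Level in CPM (y axis, linear) of Eomes, Tbx21 and Gata3 in NK-gate cells with only conventional NK genes (circles) or only ILC1-type genes (squares), by library (x axis), with exact 95% Poisson intervals. Eomes in conventional cells was between 156 and 305 CPM, and ILC1-type cells held 0 to 6 Eomes UMIs.

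Gata3 was found in all gates but gamma delta cells of the Naïve library, where it had 0 UMIs in 20 cells, with 4 UMIs in each ConA library. CD4 cells had 105, 30.4, 19.6 and 15.1 CPM from 30, 41, 21 and 16 UMIs, and CD8 cells 37.5, 10.4, 4.25 and 7.60 CPM from 25, 50, 14 and 28 UMIs. NK cells had 88.6, 37.4, 21.9 and 34.7 CPM and innate-like cells 112, 44.3, 35.5 and 14.7 CPM. In the Naïve library innate-like, CD4 and NK cells did not differ beyond counting error, and NK cells stood above CD8 cells. Between Naïve and ConA+Veh the log2 ratio was -1.85 (-2.58 to -1.10) in CD8, -1.79 (-2.50 to -1.06) in CD4, -1.33 (-2.42 to -0.32) in innate-like and -1.24 (-2.07 to -0.40) in NK cells. Per cell Gata3 was at -0.28, -0.45, -0.64 and -0.40 in these 4 gates. With the CPM intervals moved to this scale, each of these lay within counting error. In CD8 cells the CPM ratio was -0.90 without cycling cells.

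Between Naïve and ConA+Veh, Il4 and Areg did not follow Gata3 in CD4 cells. Il4 was at 21.0 CPM in Naïve and 61.6 CPM in ConA+Veh CD4 cells, a log2 ratio of 1.55 (0.37 to 3.04), and Areg (amphiregulin) at 2.28 (0.35 to 5.37). The Naïve values rest on 6 Il4 and 2 Areg UMIs. Of the 6 type 2 genes read (Il4, Il5, Il13, Ccr4, Il1rl1, Areg) only these 2 had 20 UMIs in CD4 cells. In innate-like cells Il4 went the other way, from 206 to 17.0 CPM, at -3.60 (-5.28 to -2.28). Among the ConA libraries, CD4 cells with FICZ had less of both than with vehicle, with log2 ratios of -1.94 (-2.79 to -1.18) for Il4 and -1.59 (-2.65 to -0.65) for Areg, and with TCDD Areg was at -3.19 (-5.13 to -1.74) and Il4 at -0.24 (-0.75 to 0.27). Gata3 in CD4 cells was lower too with FICZ, at -1.01 (-1.94 to -0.15), and was at -0.63 (-1.47 to 0.16) with TCDD.

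Zbtb16 was highest in the innate-like gate of the Naïve library. Innate-like cells had 124, 13.6, 5.07 and 11.04 CPM from 29, 4, 1 and 3 UMIs, and the Naïve value stood above NK cells, the next of the 5 gates, by a log2 ratio of 2.69 (1.31 to 4.42). The thinned share of innate-like cells with Zbtb16 was 13.7%, 1.82%, 2.94% and 2.50%. ConA+Veh over Naïve was lower by -3.19 (-5.16 to -1.68) in CPM and by -2.50 per cell. Cxcr6, Trbc2 and Il4 also differed in this gate, as given above, so the level of Zbtb16 per NKT cell and the share of NKT cells in the gate cannot be told apart. With the gate set by receptor segments alone, 7 Naïve and 2 ConA+Veh cells remained and the ConA+Veh cells had no Zbtb16 UMI. Over all T cells together Zbtb16 was at 31.3, 6.53, 6.40 and 5.62 CPM.

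Outside the innate-like gate a few CD4 cells carried Zbtb16, at 10.5, 14.1, 11.2 and 10.4 CPM, in 3, 9, 8 and 5 cells. Of these only 1 in each library had a Tcf7 UMI, and 0, 5, 2 and 1 had a Tbx21 UMI. CD8 cells had 0, 0, 2 and 0 Zbtb16 UMIs, NK cells 5, 2, 4 and 0, and gamma delta cells 0, 0, 0 and 1. T cells with no UMI of Cd4, Cd8a, Cd8b1 or an innate-like gene, of which there were 173, 157, 228 and 134, had 48.3, 30.4, 17.5 and 21.6 CPM. In CPM these T cells lay below the innate-like gate in the Naïve library and above it in each ConA library.

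Foxp3 was rare, as a gene of a small subset is in sparse data. CD4 cells had 3, 12, 7 and 19 UMIs, or 10.5, 8.90, 6.54 and 17.9 CPM, in 2, 5, 5 and 8 cells. Innate-like and gamma delta cells had 0 UMIs in each library, and CD8 cells 0, 8, 0 and 6. NK cells had 1 UMI, in the ConA+TCDD library. Since Cd4 itself is often missed, all T cells were also read together, and 3 of 488, 12 of 782, 15 of 639 and 22 of 536 had a Foxp3 UMI, which is 0.61% (0.13 to 1.79), 1.53% (0.80 to 2.66), 2.35% (1.32 to 3.84) and 4.10% (2.59 to 6.15). Depth differed between these cells, with medians of 2778, 6988, 6447 and 8800 UMIs. After thinning the shares were 0.64% (0.13 to 1.87), 0.52% (0.14 to 1.34), 1.44% (0.66 to 2.72) and 1.90% (0.91 to 3.46), with overlapping intervals, from 3, 4, 9 and 10 cells. Thinned B cells with Foxp3, the background, were 2 of 1040, 0 of 670, 0 of 308 and 1 of 714, and the interval in the Naïve library, 0.02 to 0.69%, overlapped that of its T cells. Of the CD4 cells with Foxp3, 2 of 2, 4 of 5, 1 of 5 and 5 of 8 also had an Ikzf2 UMI. In the whole libraries these were 3 of 7, 14 of 18, 11 of 18 and 15 of 24, and 3 of the 7 Naïve cells lay in the B cell gate, with 0 Ikzf2 UMIs.

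In CPM, though not per cell, Ikzf2 differed in direction between T cell gates. CD8 cells had 4.49, 22.8, 31.0 and 19.3 CPM from 3, 110, 102 and 71 UMIs, in 3, 68, 54 and 36 cells. The Naïve level lay below the other libraries without overlap of the intervals. ConA+Veh over Naïve was 2.34 (0.76 to 4.64) in CPM and 3.91 per cell, and the ratio was 3.12 without cycling cells. Thinned CD8 cells with Ikzf2 were 0 of 153 in the Naïve library, which allows a share of up to 1.96%, and 2.42% (1.11 to 4.54), 3.94% (1.90 to 7.12) and 3.86% (1.78 to 7.21) in the ConA libraries. Cycling CD8 cells of the ConA+Veh library had 19.0 CPM and the others 42.8 CPM.

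In the other gates the CPM of Ikzf2 was lower or within counting error in ConA+Veh against Naïve, and UMIs per cell were level or higher. This does not extend to the TCDD and FICZ libraries, for which no ratio to Naïve was taken. CD4 cells had 59.6, 23.7, 12.2 and 30.2 CPM, with ConA+Veh over Naïve at -1.33 (-2.22 to -0.39) in CPM and 0.01 per cell. Gamma delta cells had 230.1, 79.6, 104 and 32.0 CPM from 10, 16, 8 and 4 UMIs, and -1.53 (-2.76 to -0.23) in CPM against 0.05 per cell. Innate-like cells had 85.8, 130, 137 and 110.4 CPM, at 0.59 (-0.22 to 1.45) in CPM and 1.28 per cell, and stood above CD8 cells in the ConA+Veh library, where CD8 over innate-like was -2.51 (-3.05 to -1.93). NK cells had 19.3, 20.5, 15.2 and 9.12 CPM, at 0.09 (-1.41 to 1.88) in CPM and 0.94 per cell.

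Tox was low, and in CD8, CD4, NK and innate-like cells its CPM was highest in the Naïve library. CD8 cells had 33.0, 21.5, 17.9 and 17.6 CPM, CD4 cells 49.1, 29.7, 15.9 and 16.0 CPM, and NK cells 46.2, 20.5, 6.75 and 20.1 CPM. Innate-like cells had 51.5, 20.4, 15.2 and 33.1 CPM, and gamma delta cells 3, 0, 1 and 3 UMIs. No neighbouring pair of gates in the order of levels differed beyond counting error in any library. ConA+Veh over Naïve was -0.61 (-1.29 to 0.12) in CD8 and -0.73 (-1.63 to 0.27) in CD4 cells, and -1.17 (-2.32 to 0.03) in NK cells. Per cell these were 0.96, 0.61 and -0.32. Over all T cells together Tox was at -0.99 (-1.39 to -0.58) in CPM and 0.54 per cell.

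Over all gates, 29 pairs of a member and a gate had at least 20 UMIs in the Naïve and ConA+Veh libraries, of which 1 was at least 2-fold higher with ConA and 16 were lower. Of all 26305 pairs of a gene and a gate, 12.3% were higher and 11.9% lower. On UMIs per cell 6 members' pairs were higher and 2 lower, where 60% of all pairs were higher and 1.35% lower. Relative to the summed UMIs of the 28 regulators 2 were higher and 4 lower, where 31.8% of all pairs were higher and 4.12% lower. The median log2 ratio of the members was -1.13 in CD8 cells, beside 0.05 over all genes, and -0.73 beside 0.04 in CD4 cells. By gate the lower members were 4 of 7 in CD8 cells, where 11.7% of genes were lower, 3 of 7 in CD4 (9.71%), 4 of 6 in innate-like (14%), 2 of 2 in gamma delta (10.8%) and 3 of 7 in NK cells (13.7%). The higher one, Ikzf2, was in CD8 cells, where 14.9% of genes were higher, and 0 members were higher in CD4 (10.8% of genes), innate-like (9.51%), gamma delta (21.3%) and NK cells (8.93%). The 3 pairs that were 2-fold apart on both scales were Ikzf2 in CD8, Zbtb16 in innate-like and Tcf7 in gamma delta cells. For counts of 3 or more, the scales within a gate differ by the same amount for each gene, upward with ConA. Ikzf2, called higher in CPM, was thus bound to be called higher per cell too.

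**Figure D3:**
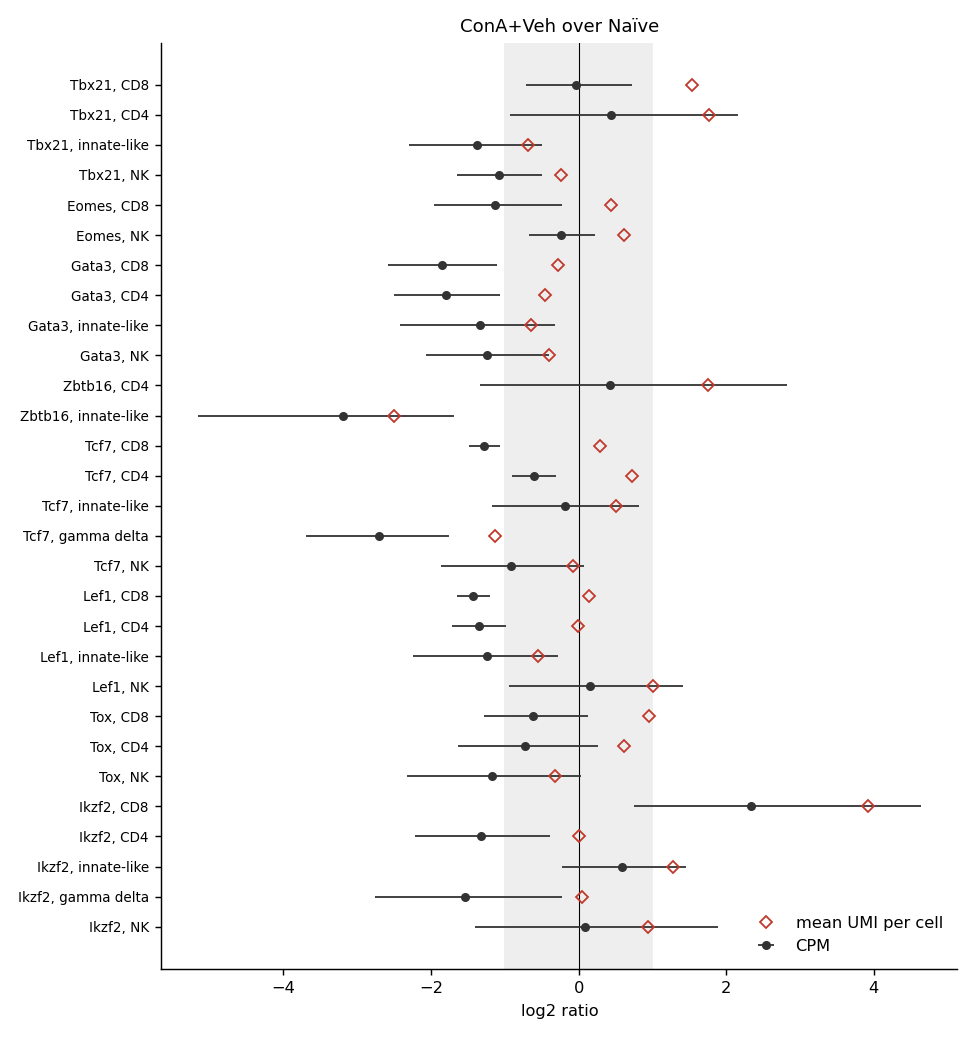
Log2 ratio of ConA+Veh over Naïve (x axis) for each gene and gate (y axis) with at least 20 UMIs, in CPM (filled, with the 95% counting interval) and in mean UMI per cell (open diamonds), and with the range within 2-fold shaded. Of the 29 pairs 16 lie at or below -1 in CPM and 2 in UMI per cell.

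Between ConA+TCDD and ConA+Veh the members were closer. Of 28 pairs 0 were at least 2-fold higher and 3 lower, where 1.55% of all pairs were higher and 3.67% lower. The 3 were Gata3 in CD8 cells, Tcf7 in NK cells and Tox in NK cells. Of all genes with enough UMIs, 2.14% were lower in CD8 cells, 2.64% in CD4, 6.75% in innate-like, 10.8% in gamma delta and 3.57% in NK cells, and 1.04%, 1.24%, 3.13%, 3.03% and 1.46% were higher. The ConA+Veh library is shared by this comparison and those with Naïve and with FICZ.

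Gata3 in CD8 cells was at 4.25 CPM with TCDD against 10.4 CPM with vehicle, from 14 and 50 UMIs, a log2 ratio of -1.28 (-2.25 to -0.41). It was seen in 13 of 259 and 40 of 377 CD8 cells, and after thinning in 0 of 254, which allows up to 1.18%, and 1.88% (0.76 to 3.84). The ratio was -1.42 without cells lacking Cd52, which were 17.0% of ConA+TCDD and 4.77% of ConA+Veh CD8 cells, and -1.59 without cycling cells. Tcf7 in NK cells was at -1.10 (-2.37 to 0.03) from 9 and 27 UMIs, and Tox at -1.60 (-3.63 to 0.01) from 4 and 17, so both intervals reached 0.

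Some smaller differences lay outside counting error. In CD8 cells Tbx21 was at -0.61 (-1.06 to -0.17), Lef1 at -0.41 (-0.61 to -0.21) and Tcf7 at -0.18 (-0.35 to -0.02), while Ikzf2 was at 0.44 (0.04 to 0.85). In CD4 cells Tcf7 was at -0.52 (-0.77 to -0.28) and Tox at -0.90 (-1.81 to -0.05), and Lef1 was at 0.01 (-0.32 to 0.33). Foxp3 over all T cells was at 0.67 (-0.16 to 1.51).

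Between ConA+FICZ and ConA+Veh 3 of 29 pairs were at least 2-fold higher and 5 lower, beside 2.68% and 4.35% of all pairs. The higher ones were Foxp3 in CD4 cells, at 1.01 (-0.11 to 2.18), and in gamma delta cells Tcf7, at 1.12 (0.16 to 2.12), and Lef1, at 1.22 (-0.12 to 2.62). Lower were Gata3 in CD4 cells, at -1.01 (-1.94 to -0.15), Ikzf2 in gamma delta cells, at -1.31 (-3.35 to 0.32), and 3 genes in NK cells. These were Tcf7, at -1.84 (-3.57 to -0.44) from 5 and 27 UMIs, Lef1, at -1.23 (-2.49 to -0.13) from 9 and 32 UMIs, and Ikzf2, at -1.17 (-2.96 to 0.33). The gamma delta values rest on 26 and 31 cells. Of all genes, 1.52% were higher and 3.1% lower in CD8 cells, 2.37% and 4.8% in CD4, 5.53% and 5.48% in innate-like, 3.78% and 7.51% in gamma delta, and 2.87% and 4.06% in NK cells.

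Eomes in NK cells was at -0.47 (-0.88 to -0.07) and Tbx21 at 0.55 (0.04 to 1.06), so the T-box genes of NK cells lay on opposite sides of the vehicle. In CD8 cells Tcf7 was at 0.09 (-0.07 to 0.24), Lef1 at -0.38 (-0.58 to -0.19) and Tbx21 at 0.44 (0.10 to 0.78).

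Over all T cells Foxp3 was at 2.75, 2.85, 4.53 and 7.89 CPM from 5, 24, 29 and 52 UMIs, and FICZ over vehicle was 1.47 (0.75 to 2.23). The UMIs with FICZ came from 22 of 536 cells (4.10%, unthinned) and those with vehicle from 12 of 782 (1.53%). Cells with Foxp3 thus held more than 1 UMI on average, and the interval is too narrow. FICZ over TCDD was 0.80 (0.12 to 1.51).

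The 2 AhR ligands differ in structure, TCDD being a chlorinated dioxin and FICZ an indolocarbazole, and no dose of FICZ is given in the sources used here. Values for FICZ and TCDD are thus set side by side. Of 23 pairs 5 were at least 2-fold higher with FICZ and 1 lower, beside 3.54% and 2.63% of all pairs. Of all genes, 1.9% were higher and 1.9% lower in CD8 cells, 3.08% and 2.78% in CD4, 6.45% and 3.52% in innate-like, 8.43% and 2.81% in gamma delta, and 4.13% and 3.12% in NK cells. Tbx21 in CD8 cells was at 39.6 CPM with FICZ and 19.1 CPM with TCDD, from 146 and 63 UMIs, a log2 ratio of 1.05 (0.61 to 1.5). It was at 29.2 CPM with vehicle, between the ligands. When each cell was first scaled to 10000 UMIs and the cells averaged, the log2 ratio was 0.59, and as UMIs per cell it was 1.36.

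Foxp3 in CD4 cells was at 1.45 (0.14 to 2.95), from 19 and 7 UMIs, and was at -0.70 without cycling cells. Ikzf2 in CD4 cells was at 1.31 (0.34 to 2.37), and in CD8 cells it was at -0.69 (-1.14 to -0.23), from 71 and 102 UMIs. Tcf7 was at 1.34 (0.17 to 2.69) in innate-like and 1.24 (-0.10 to 2.83) in gamma delta cells, and at 0.27 (0.10 to 0.45) and 0.41 (0.15 to 0.68) in CD8 and CD4 cells. Lef1 in NK cells was the lower one, at -1.04 (-2.36 to 0.16). Lef1 in CD8 cells was at 0.02 (-0.20 to 0.25) and in CD4 cells at 0.04 (-0.30 to 0.38), both with intervals well within 2-fold.

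**Figure D4:**
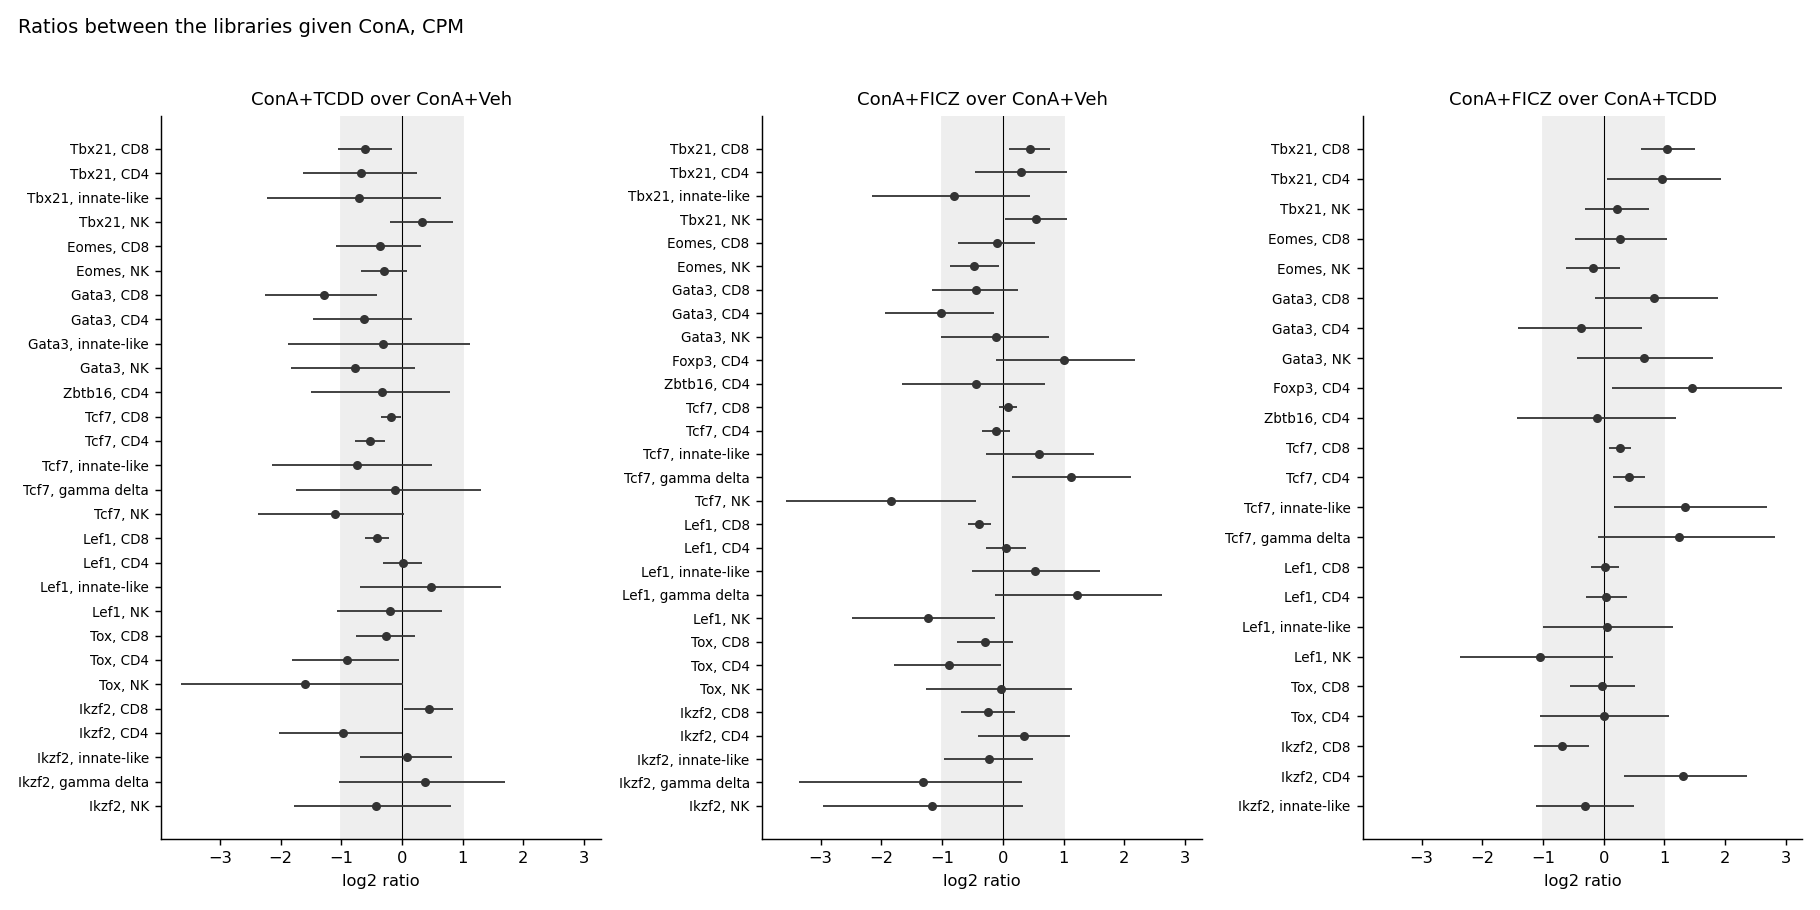
Log2 ratio of CPM (x axis) for each gene and gate (y axis) with at least 20 UMIs, for TCDD over vehicle, FICZ over vehicle and FICZ over TCDD, all after ConA, with 95% counting intervals and the range within 2-fold shaded. Most points lie in the shaded range, with 3 of 28, 8 of 29 and 6 of 23 outside it.

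Other regulators of lymphocyte fate, 28 genes, were read in the same way. In CD8 cells 22 had 20 UMIs in the Naïve and ConA+Veh libraries, of which 4 were at least 2-fold higher and 5 lower in CPM, beside 14.9% and 11.7% of all genes in that gate. Higher were Id3 (1.15), an inhibitor of E proteins, Nfil3 (1.11), Maf (2.01) and Irf4 (1.20), which is induced by receptor signals. Lower were Runx1 (-1.12), Runx2 (-1.55), Zeb2 (-1.53), Bcl11b (-1.24), a factor of T cell identity, and Klf2 (-3.50), which keeps T cells quiescent and went from 1127 to 99.4 CPM. Per cell the 4 higher ones stayed higher and Klf2 was at -1.93, while Runx1 (0.45), Runx2 (0.02), Zeb2 (0.04) and Bcl11b (0.33) were no longer lower. With TCDD against vehicle 0 of 22 were 2-fold apart in CD8 cells (1.04% of genes were higher and 2.14% lower). With FICZ against vehicle 0 of 22 were higher and 5 lower (1.52% and 3.1% of genes), Rora (-1.497), Runx2 (-1.23), Bcl6 (-1.24), Myb (-1.23) and Prdm1 (-1.31), which encodes BLIMP-1. FICZ over TCDD gave, beside 1.9% of genes in each direction, 1 of 23 higher, Id3 (1.02), and 5 lower, Rora (-1.80), Runx2 (-1.16), Prdm1 (-1.62), Bach2 (-1.09) and Zeb2 (-1.35).

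In the other gates the counts of these regulators, higher and lower with ConA, were 2 and 3 of 19 in CD4, 1 and 7 of 16 in innate-like, 1 and 2 of 10 in gamma delta and 1 and 5 of 18 in NK cells. The shares of all genes were 10.8% and 9.71% in CD4, 9.51% and 14% in innate-like, 21.3% and 10.8% in gamma delta and 8.93% and 13.7% in NK cells, so counts of 1 to 3 lie near the background and are not read as results. In CD8 cells the effector genes had 1 of 6 higher, Gzmb (1.23), and 2 lower, Ccl5 (-3.41) and Cxcr6 (-1.004), beside 14.9% and 11.7% of all genes. Per CD8 cell Cxcr6 was at 0.57. Higher and lower effector genes were 1 and 3 of 4 in CD4, 2 and 1 of 6 in innate-like, 2 and 3 of 5 in gamma delta and 2 and 3 of 6 in NK cells. In CD4 cells the regulatory genes had 3 of 5 higher, Il2ra (2.43), Ctla4 (1.59) and Tnfrsf4 (1.09), and 1 lower, Nrp1 (-1.14, and 0.19 per cell), and the 3 higher ones are also known from activated T cells that lack Foxp3. In CD8 cells 3 of 6 were higher, the same genes (1.70, 1.81 and 1.64), and 1 was lower, Itgae (-2.24). Ctla4 was also higher in gamma delta (3.62) and NK cells (3.55), from 1 and 4 Naïve UMIs. In NK cells 3 of 4 conventional NK genes and 2 of the ILC1-type genes were lower in CPM, the latter being Cxcr6 (-2.48) and Itga1 (-2.37). These 5 were lower per cell too, though for Klrg1 (-0.26 per cell) within counting error.

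The genes whose CPM went most closely with each member over the 20 gate and library sums, out of 5041, were found by Pearson correlation of log2(CPM + 10). For Eomes it was Plek (0.95), for Tbx21 Tbc1d2b (0.91) and Itgb2 (0.91), and for Lef1 Snrpg (0.93) and Rflnb (0.92). Tcf7 went with Gm8369 (0.91) and Actn1 (0.91), Tox with Fbxl14 (0.92), Zbtb16 with Socs2 (0.87), Gata3 with Smarcc2 (0.84), Foxp3 with Tnfrsf4 (0.80) and Ikzf2 with Abcb9 (0.70). Among the members, Tcf7 and Lef1 gave 0.86, Tbx21 and Eomes 0.65, and Eomes and Lef1 -0.75. The 20 sums share 4 libraries and their depths and are not independent.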

How the data were processed

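Liver mononuclear cells were prepared with a dissociation kit and a Percoll gradient, and 4 libraries were made with the 10x Genomics 5′ kit. The authors used Cell Ranger 3.0.2 with the mm10 genome, and the deposited matrices hold whole-number UMI counts for called cells, not normalized. Nothing was removed before gating, and no doublet caller was run.

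T cells had at least 2 UMIs of Cd3d, Cd3e and Cd3g. NK cells had at most 1 of these and at least 2 of Ncr1, Klrb1c, Klre1, Klra4 and Klra8, and near-identical Klra copies and Trav11 and Trav11d can lose or split reads. Gamma delta cells had Trdc and no Trac. Innate-like cells had no Cd8a or Cd8b1 and had Klrb1c, Trav11, Trav11d or Trav1. CD8 cells had Cd8a or Cd8b1 and no Cd4, and CD4 cells the reverse. Cells with more than 1 B cell UMI or more than 2 myeloid UMIs were left out (16, 56, 17 and 45 cells). B cells gave the background.

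UMIs were summed per gate and library (CPM), with exact Poisson intervals, and ratios had exact binomial intervals of the 2 sums. Sums of 0 took a floor of 3 counts, also the basis of limits on shares of 0. Shares were taken after thinning to 1000 UMIs. With 1 library per group no test was made, and the study's test between cells was not used. Each member was described in the gates, with values in CPM or UMIs. Other regulators were named where 2-fold apart in CD8 cells, and the 3 genes most like each member, of which 1 or 2 are printed, came from genes reaching 50 CPM. The members and lists were chosen with earlier results of these data known. A planned split of the T cell gates and a naive T cell list are not reported here. The ratio script was tested on simulated data. Alternatives changed gates, depth scaling, cells kept and the UMI minimum. The work used scipy 1.17.1, numpy 2.4.6, matplotlib 3.10.9 and pandas 2.3.3 under Python 3.11.15.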

Additional observations from a re-analysis of the deposited data

Results flagged for a closer look

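Pairs of gates were looked at in which a member was at least 2-fold higher in one and at least 2-fold lower in the other under the same comparison, and each difference was not tested, since each group is 1 library. Ikzf2, ConA+Veh over Naïve, was at 2.34 in CD8 cells and -1.33 in CD4 cells, 3.67 apart on the log2 scale, and at -1.53 in gamma delta cells, 3.874 apart from CD8 cells. Per cell the CD4 and gamma delta ratios were 0.01 and 0.05. Tcf7, ConA+FICZ over ConA+Veh, was at 1.12 in gamma delta cells and -1.84 in NK cells, 2.961 apart, and Lef1 was at 1.22 and -1.23 in these gates, 2.452 apart. The NK values come from 5 and 9 UMIs in the ConA+FICZ library and the gamma delta values from 23 and 13.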

How the results depend on the processing

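No paired analysis was possible because each group is 1 library, and for the same reason no replicate could be left out. In the following settings each of the 109 log2 ratios stayed within its counting error, and those at least 2-fold apart kept their direction. These were T cell gates of at least 1 or 3 UMIs, a total without ribosomal and mitochondrial genes, and, chosen after seeing the data, no cells of shared barcodes. Direction was not checked for smaller ratios. A reversal here is a change of sign, also to a value near 0. Among ratios at least 2-fold apart in CPM, 5 of ConA+Veh over Naïve reversed in this sense on UMIs per cell. These were Eomes (0.4456), Tcf7 (0.2952) and Lef1 (0.1415) in CD8 cells and Ikzf2 in CD4 (0.007174) and gamma delta cells (0.0458). Smaller ratios that changed sign, such as Tcf7 in CD4 cells (-0.61 in CPM and 0.73 per cell), are not in this count. With gates set after thinning, which left few cells, Ikzf2 reversed in CD4 (0.2751) and gamma delta cells (0.7947), Lef1 in gamma delta cells for FICZ over vehicle (-0.01941) and Tcf7 in innate-like cells for FICZ over TCDD (-1.057). With innate-like cells set by receptor segments, 7 Naïve and 2 ConA+Veh cells remained, the latter with 0 UMIs of Tbx21, Gata3, Lef1 and Zbtb16. Only the floor put these ratios above 0, at 0.8951 for each of Tbx21, Gata3 and Lef1 and 1.31 for Zbtb16. They are upper bounds and show no reversal. Without cycling cells Foxp3 in CD4 cells reversed for FICZ over TCDD (-0.6973). Beyond reversals, 24 of the 109 ratios moved outside their counting error without cycling cells. With gates set after thinning 26 did so, and on UMIs per cell 16. Against the 28 regulators 12 did so, and as UMIs per 10000 11. The causes were not tested beyond these constructions.

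Counts of pairs at least 2-fold apart moved more. For ConA+Veh over Naïve the 1 higher pair became 2 with a T cell gate of 1 UMI, 6 per cell and 2 against the 28 regulators (chosen after seeing the data), and the 16 lower became 9 with thinned gates, 2 per cell, 9 with a minimum of 50 UMIs and 4 against the regulators. For TCDD over vehicle the 0 higher became 1 with thinned gates, and the 3 lower became 5 as UMIs per 10000 and 1 at 50 UMIs. For FICZ over vehicle the 3 higher became 1 without the B and myeloid exclusion, with no such UMI allowed, per 10000, per cell, without cycling cells and against the regulators, and 0 with thinned gates and at 50 UMIs. The 5 lower became 2 without cells of low quality and 1 at 50 UMIs. Low quality meant under 200 genes or more than 10% mitochondrial UMIs. For FICZ over TCDD the 5 higher became 0 with thinned gates, 3 without cycling cells or without cells lacking Cd52, 8 at a minimum of 10 UMIs and 1 at 50. The 1 lower became 0 with no B or myeloid UMI allowed, without cells lacking Cd52, at 50 UMIs and without shared barcodes, 3 with thinned gates and at 10 UMIs, and 2 per 10000. Depth limits Foxp3, Zbtb16 and the gamma delta gate, where most members had under 20 UMIs in each comparison.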
